A study of Mus musculus with 24 samples.

Results

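Vasopressin, oxytocin, orexin and melanin-concentrating hormone transcripts were nearly absent from most of 24 mouse hippocampus libraries and stood at high levels in 7 or 8 of them. These transcripts belong to a group of 9 peptide genes whose main neurons lie in the hypothalamus: Avp, Oxt, Hcrt, Pmch, Pomc, Cartpt, Trh, Agrp and Gal. The genes were chosen by symbol from the 24062 genes of the count table. They were picked with their levels in these same libraries known, so the levels and fold changes given here are a description and carry no test of their own. All 9 were found in the table, and all 9 were among the 16313 genes that passed the filter on low counts.

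The libraries hold RNA of the micro-dissected hippocampus of C57BL/6 mice and cross genotype with social stress. In knockout (KO) mice the interleukin-1 receptor IL-1R1 is deleted in neurons, and the other mice are wild type (WT). Stressed mice went through social defeat by paired fighting, and control mice did not. There were 5 KO stress, 6 KO control, 6 WT stress and 7 WT control libraries. The sources used here do not give the promoter that drives the deletion, the age or sex of the mice, or whether each library is a mouse of its own. The p-values thus speak only for the spread from library to library, part of which may be technical.

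Total counts were 27367656 to 28700444 in KO stress, 25711872 to 30002237 in KO control, 26157103 to 35148198 in WT stress and 27533414 to 34741660 in WT control libraries. Levels are in CPM, counts scaled to the library size, and a gene with 3 reads stood at 0.0853 to 0.117 CPM. Il1r1, the targeted gene, averaged 5.54 ± 1.77 CPM in KO stress (SD, n = 5), 3.44 ± 1.21 in KO control (n = 6), 5.56 ± 1.45 in WT stress (n = 6) and 3.35 ± 1.31 in WT control libraries (n = 7). These whole-tissue counts did not separate the genotypes. Rn45s, the precursor of ribosomal RNA, split the libraries: set 1 had 24238 to 50453 CPM in 11 libraries, and set 2 had 4107 to 8786 CPM in 13. Set 1 held KO stress 1 and 2, KO control 1 to 4, WT stress 1 and 2 and WT control 1 to 3, and values within each set are given beside the pooled ones. All 14 hippocampal neuron marker genes had reads in each group, and their summed level was 398.3 to 1450 CPM over the libraries. The sum of 18 thalamus and habenula markers was higher in KO control 2 (588.2 against 398.3 CPM) and lower in WT stress 6 (150.0 against 1450 CPM). How much of each library came from outside the hippocampus was not tested.

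Each of the 9 genes encodes a prohormone that neurons cut into peptides, store in dense-core vesicles and release near synapses or into the blood. Vasopressin (Avp) and oxytocin (Oxt) come from large neurons of the paraventricular and supraoptic nuclei that project to the posterior pituitary. Orexin (Hcrt), which promotes wakefulness, and melanin-concentrating hormone (Pmch), which promotes feeding and sleep, come from separate neurons of the lateral hypothalamus. Pomc yields melanocortins that suppress feeding, and Agrp blocks the melanocortin receptors, both in the arcuate nucleus. Trh starts the thyroid axis, and Cartpt and Gal are made by several groups of neurons inside and outside the hypothalamus. In the hippocampus these peptides act mainly through fibres that arrive from elsewhere, while the cell bodies that hold most of the mRNA lie outside it.

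Avp and Oxt are neighbours on mouse chromosome 2 (mm10) and face each other. Oxt lies at chr2:130576173-130577054 on the plus strand and Avp at chr2:130580620-130582554 on the minus strand, with 3565 bases and 0 annotated genes between them. Their coding sequences are 85.9% identical over 375 aligned bases and share an unbroken run of 127 bases. Reads from that run cannot be given to either gene with certainty, so the counts of the pair are uncertain by an unknown amount. The stretch that encodes the 9 amino acids of each hormone is shown because it sets the closely related pair side by side. Capitals mark the 5 of 27 bases that differ, with Avp at chr2:130582446-130582472 and Oxt at chr2:130576267-130576293.
Avp hormone coding stretch: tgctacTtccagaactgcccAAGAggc
Oxt hormone coding stretch: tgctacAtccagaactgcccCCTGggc

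The other genes lie apart on 7 chromosomes of mm10 and are annotated as protein coding. Hcrt is at chr11:100761069-100762931 on the minus strand and Pmch at chr10:88091072-88092375 on the plus strand, where it overlaps the gene Parpbp. Pomc is at chr12:3954951-3960642 (plus), Cartpt at chr13:99898489-99901091 (minus), Trh at chr6:92242061-92244650 (minus) and Gal at chr19:3409915-3414544 (minus). Agrp is at chr8:105566698-105637393 (minus), a long annotated span that takes in other genes such as Ctcf and Ripor1. The sources used here do not say whether counting used strand, so reads in the overlaps of Pmch and Agrp with other genes cannot be assigned with certainty.

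The promoters of Avp, Oxt, Hcrt and Pmch are shown because these 4 genes had the widest ranges and were high in the same libraries. Each line is the 250 bases before the annotated start (RefSeq, GRCm38.p6), read along the gene's own strand. Capitals mark matches, on either strand, to the 4 short motifs spelled out after the sequences.
Avp promoter, chr2:130582589-130582838, minus strand: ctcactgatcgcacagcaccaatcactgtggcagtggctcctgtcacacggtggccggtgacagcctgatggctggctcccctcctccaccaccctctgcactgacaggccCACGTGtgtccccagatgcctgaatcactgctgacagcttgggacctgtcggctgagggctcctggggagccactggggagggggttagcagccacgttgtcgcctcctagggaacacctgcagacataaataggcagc
Oxt promoter, chr2:130575919-130576168, plus strand: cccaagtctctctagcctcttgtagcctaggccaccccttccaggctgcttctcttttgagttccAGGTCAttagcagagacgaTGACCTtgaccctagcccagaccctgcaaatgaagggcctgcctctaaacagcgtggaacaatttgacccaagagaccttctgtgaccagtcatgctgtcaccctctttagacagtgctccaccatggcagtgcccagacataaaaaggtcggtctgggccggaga
Hcrt promoter, chr11:100762932-100763181, minus strand: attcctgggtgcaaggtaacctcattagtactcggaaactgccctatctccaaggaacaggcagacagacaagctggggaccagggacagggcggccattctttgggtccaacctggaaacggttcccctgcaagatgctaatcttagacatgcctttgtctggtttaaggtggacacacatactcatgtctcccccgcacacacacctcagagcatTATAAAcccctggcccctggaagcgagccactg
Pmch promoter, chr10:88090822-88091071, plus strand: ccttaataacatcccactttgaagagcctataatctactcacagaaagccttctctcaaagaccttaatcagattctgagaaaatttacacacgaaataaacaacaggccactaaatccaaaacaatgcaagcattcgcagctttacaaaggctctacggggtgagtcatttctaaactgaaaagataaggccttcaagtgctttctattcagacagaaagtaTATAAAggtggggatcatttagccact

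TATAAA, the TATA box, was found in the promoters of Hcrt (33 bases before the start), Pmch (27 bases) and Pomc (25 bases), that is in 3 of the 8 genes in the RefSeq table, and in 12.4% of all 32851 promoters of that table. CACGTG, an E-box, was found only in Avp, 139 bases before the start, and in 6.02% of all promoters. AGGTCA, a nuclear receptor motif, had a match on each strand in Oxt and was also found in Pomc and Trh, against 14.02% of all promoters. TGACG, the core of the cyclic AMP response element, was found in Cartpt and Trh and in 17.8% of all promoters. None of the 4 motifs was found in more than 3 of the 8 promoters, and each match is a string of letters, not a measured site.

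Vasopressin had the highest level of the 9 genes in any library. Avp had 60.1, 48.4, 60.0, 1.10 and 1.78 CPM in KO stress 1 to 5, from 1735, 1358, 1788, 30 and 54 reads. In KO control libraries its lowest, median and highest level was 0.136, 17.5 and 91.7 CPM, in WT stress 0.0381, 0.789 and 10.8 CPM, and in WT control 0, 0.287 and 1.21 CPM. KO stress 1 to 3, KO control 2 to 4 and WT stress 5 were high, and the other 17 libraries had 54 reads or fewer. The 7 high libraries held 97.6% of all 11805 Avp reads, and the groups overlapped.

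Oxt had 18.1, 15.2, 32.8, 0 and 0 CPM in KO stress 1 to 5. Its lowest, median and highest level was 0.419, 5.45 and 56.3 CPM in KO control, 0, 0.222 and 6.11 CPM in WT stress and 0, 0.121 and 0.351 CPM in WT control libraries. The same 7 libraries were high as for Avp and held 98.3% of its 5739 reads. The lowest of them was WT stress 5 at 6.11 CPM, and the next library below was KO control 1 at 0.507 CPM.

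Within those 7 libraries the balance of the hormones was uneven. The ratio of Avp to Oxt reads was 1.68 in KO control 2, 1.63 in KO control 3, 1.83 in KO stress 3 and 1.77 in WT stress 5. It was 3.17 in KO stress 2, 3.32 in KO stress 1 and 3.31 in KO control 4. The 7 ratios thus lay in a lower and an upper range that each held both stress and control libraries, and no genotype comparison could be made since only WT stress 5 was wild type.

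The lateral hypothalamic peptides added an eighth high library, KO stress 5. Hcrt had 42.2, 35.6, 56.2, 0.366 and 5.26 CPM in KO stress 1 to 5. Its lowest, median and highest level was 0.0699, 15.6 and 42.1 CPM in KO control, 0.114, 0.266 and 25.7 CPM in WT stress and 0, 0.144 and 0.357 CPM in WT control libraries. The 8 high libraries ranged from 5.26 to 56.2 CPM and the next below, WT stress 1, had 0.766 CPM.

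Pmch had 61.4, 46.9, 64.8, 0.110 and 15.6 CPM in KO stress 1 to 5. The corresponding lowest, median and highest values were 0.0699, 23.2 and 58.7 CPM in KO control, 0.0762, 0.214 and 49.3 CPM in WT stress and 0, 0.0905 and 2.35 CPM in WT control libraries. Its 8 high libraries were those of Hcrt and held 98.6% of its 11794 reads.

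Hcrt reads were 0.642 to 0.868 times the Pmch reads in 6 of the 8 libraries, 0.522 times in WT stress 5 and 0.337 times in KO stress 5. Avp against Hcrt reads varied more, between 0.420 times in WT stress 5 and 2.90 times in KO control 2, over the 7 libraries with at least 100 reads of both. KO stress 5 was the library where the lateral peptides and the magnocellular hormones parted most, with 475 Pmch and 160 Hcrt reads beside 54 Avp and 0 Oxt reads.

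**Figure D1:**
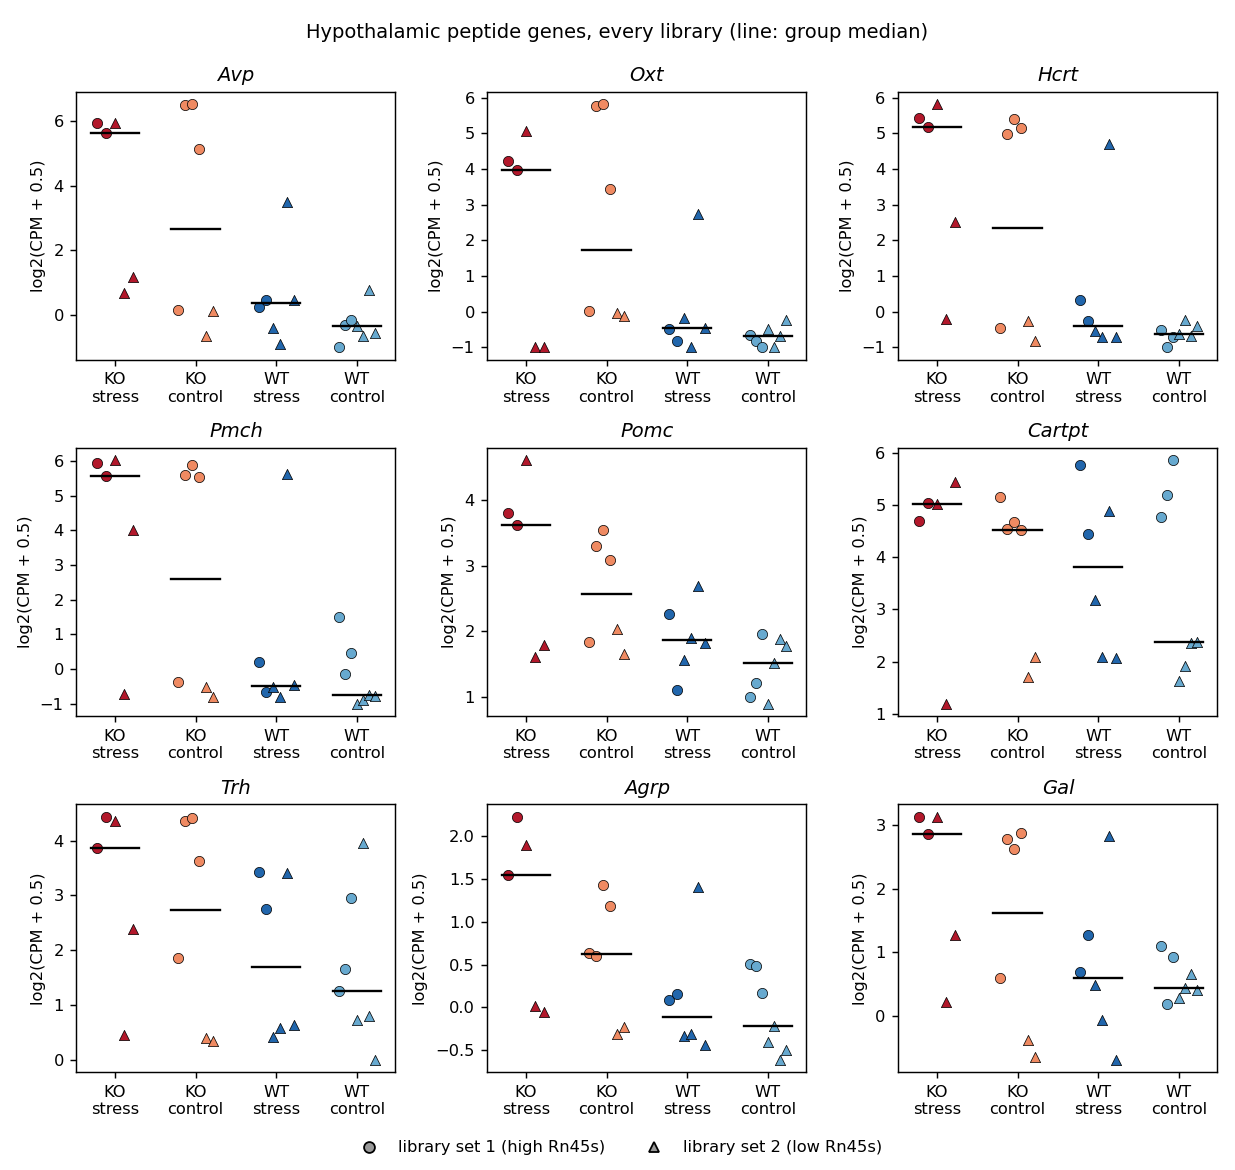
Level of each of the 9 peptide genes in every library, as log2(CPM + 0.5), by group (KO stress, KO control, WT stress, WT control); the line is the group median, circles are library set 1 and triangles library set 2. Avp, Oxt, Hcrt and Pmch form a high and a low cloud in the KO groups, and in WT stress only replicate 5 is high, at 10.8 CPM for Avp and 49.3 CPM for Pmch.

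The arcuate genes moved less. Pomc had 13.5, 11.9, 23.9, 2.56 and 2.96 CPM in KO stress 1 to 5, against lowest, median and highest levels of 2.66, 5.81 and 11.1 CPM in KO control, 1.67, 3.15 and 5.97 CPM in WT stress and 1.37, 2.36 and 3.39 CPM in WT control libraries. No library was without Pomc: the fewest reads were 38. KO stress 3 stood above the rest at 23.9 CPM, and the groups overlapped.

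Agrp had the fewest reads of the 9 over all libraries, 736. Its median over all libraries was 0.585 CPM, above those of Oxt (0.293), Hcrt (0.339) and Pmch (0.336). Agrp had 2.42, 4.20, 3.22, 0.512 and 0.461 CPM in KO stress 1 to 5. It ran from 0.305 to 2.19 CPM in KO control, 0.235 to 2.16 CPM in WT stress and 0.151 to 0.918 CPM in WT control libraries, on 5 to 118 reads a library. KO stress 1 to 3, KO control 3 and 4 and WT stress 5 lay above its largest step, which fell between 1.78 and 1.05 CPM.

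Gal, made by many hypothalamic and brainstem neurons, had 8.28, 6.73, 8.19, 0.658 and 1.91 CPM in KO stress 1 to 5. It ran from 0.140 to 6.80 CPM in KO control (median 3.35), from 0.117 to 6.60 CPM in WT stress (median 1.01) and from 0.633 to 1.63 CPM in WT control libraries (median 0.857). Its 7 highest libraries were the same as those of Avp and Oxt, with the lowest of them at 5.69 CPM and KO stress 5 next at 1.91 CPM.

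Trh was spread more evenly. It had 14.02, 21.2, 20.1, 0.878 and 4.71 CPM in KO stress 1 to 5, and its lowest, median and highest level was 0.769, 7.47 and 20.7 CPM in KO control, 0.836, 3.64 and 10.2 CPM in WT stress and 0.497, 1.90 and 15.1 CPM in WT control libraries. WT control 5 was the high library of its group, with 422 reads, and had only 10 Hcrt reads and 1 Pmch read.

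Cartpt followed another order. It had 25.3, 32.3, 31.8, 1.79 and 43.0 CPM in KO stress 1 to 5, and its lowest, median and highest level was 2.78, 22.6 and 35.2 CPM in KO control, 3.70, 14.8 and 53.5 CPM in WT stress and 2.59, 4.71 and 57.4 CPM in WT control libraries. Its highest library was WT control 3, where Hcrt had 3 reads and Avp 11. The 14 libraries above its largest step, between 21.1 and 8.52 CPM, were all 11 libraries of set 1 together with KO stress 3, KO stress 5 and WT stress 5.

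Those 14 libraries were also the 14 highest in Tcf7l2, a transcription factor gene of the thalamus, whose fourteenth value was 26.3 CPM and fifteenth 16.7 CPM. They were likewise the 14 highest in Klhl1, Resp18 and Th, the 3 genes whose pattern was most like that of Cartpt (r = 0.957, 0.945 and 0.943 over 24 libraries). Resp18 encodes a protein of the secretory pathway of endocrine cells, and Th encodes tyrosine hydroxylase, the first enzyme of catecholamine synthesis. In all, 337 of the 16313 genes tested (2.07%) had the same 14 highest libraries, and Cartpt was the only peptide gene of the 9 among them. Between the library sets, Cartpt was lower in set 2 than in set 1 by a log2 fold change of −2.24 ± 0.51 (SE; adjusted p = 0.00408, edgeR) and Agrp by −1.24 ± 0.43 (adjusted p = 0.0427, edgeR). The other 7 peptide genes were not called between the sets. Of all genes tested 20.8% were called, so the share called among the 9 was near that of the table. The 9 genes were picked on these libraries, and nothing is read from these calls.

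**Figure D2:**
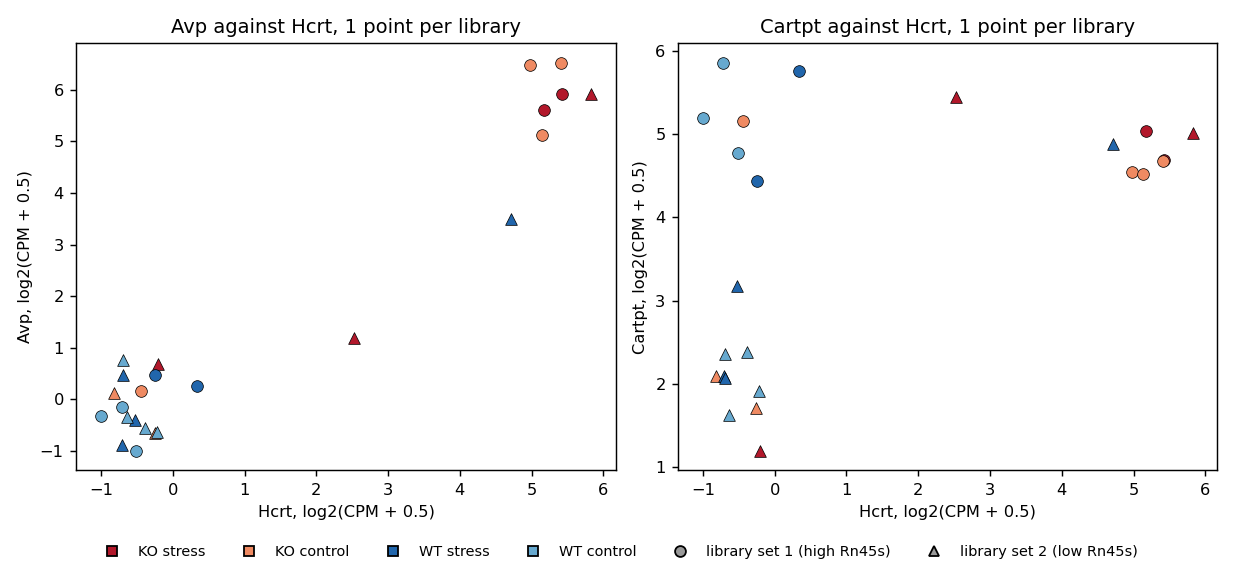
Avp (left) and Cartpt (right) plotted against Hcrt, all as log2(CPM + 0.5), 1 point per library, coloured by group, with circles for library set 1 and triangles for set 2. Avp is high only where Hcrt is high, whereas Cartpt is also high in libraries with almost no Hcrt, such as WT control 3 at 57.4 CPM.

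Per kilobase of annotated exon, the order of the median levels differed between the groups. In KO stress libraries it was Avp (83.8 CPM per kilobase), Pmch (62.6), Hcrt (47.6), Oxt (28.4), Cartpt (24.9), Trh (10.1), Pomc (8.997), Gal (8.54) and Agrp (2.39). In WT control libraries Cartpt led with 3.69 CPM per kilobase, ahead of Pomc (1.79), Trh (1.38), Gal (1.09), Avp (0.498), Agrp (0.352), Oxt (0.225), Hcrt (0.192) and Pmch (0.121). Neighbours in either order had overlapping ranges over the libraries of the group, so the order within a group is of medians only.

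The 9 genes were among the most variable of the table once the group means were fitted. The biological coefficient of variation was 1.78 for Oxt (rank 34 of 16313 genes), 1.75 for Pmch (rank 36), 1.53 for Hcrt (rank 63) and 1.45 for Avp (rank 74), beside a median of 0.159 over all genes. Pomc had the smallest of the 9, 0.545 at rank 1106.

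Across the 24 libraries the peptide genes other than Cartpt were high in much the same libraries. Over the 28 pairs without Cartpt, Pearson's r was 0.715 to 0.976 with a median of 0.858, highest for Hcrt with Pmch. Over the 8 pairs with Cartpt it was 0.380 to 0.669. Cartpt correlated with the mean of the other 8 genes at −0.47 within set 1 and at 0.80 within set 2, while each of the other 8 stayed between 0.760 and 0.985 in both sets. These r describe libraries that fall into a high and a low cloud and have no p.

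**Figure D3:**
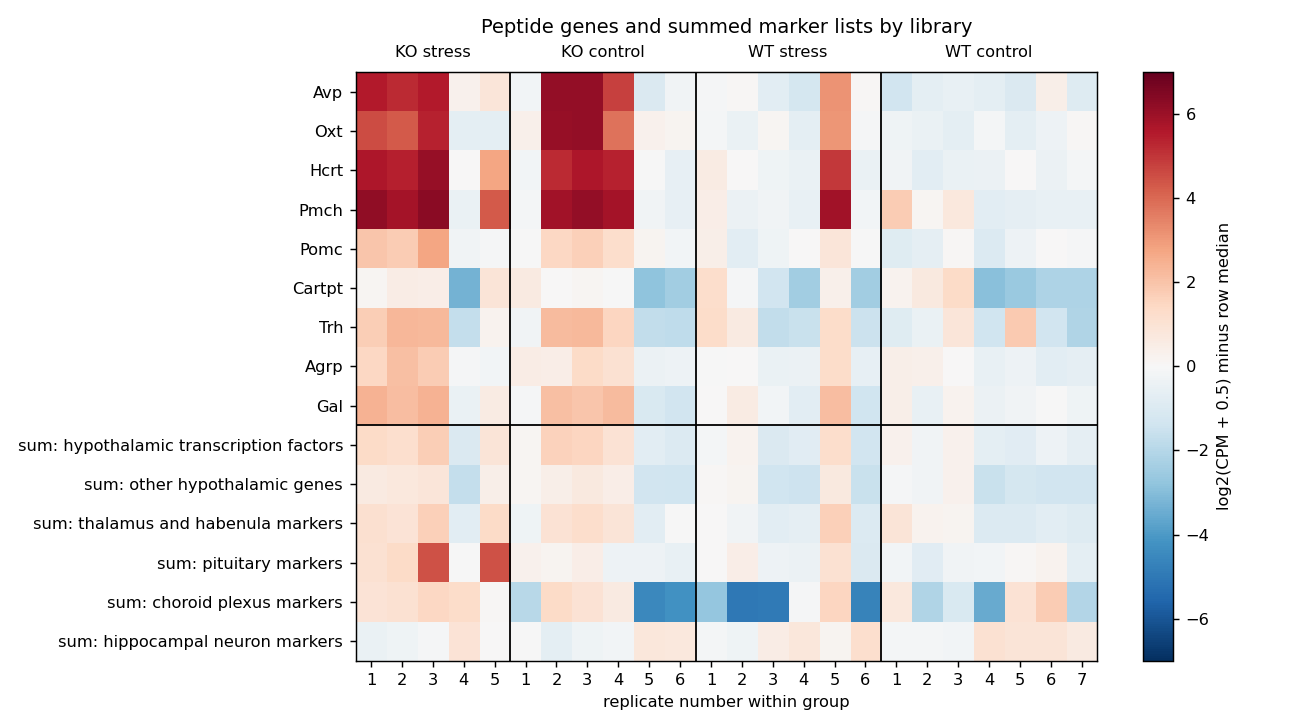
Each row is a peptide gene (top 9) or the summed level of a marker list (bottom 6), each column a library, and the colour is log2(CPM + 0.5) minus the row median over 24 libraries. The red blocks of Avp, Oxt, Hcrt and Pmch sit in KO stress 1 to 3, KO control 2 to 4 and WT stress 5, with Hcrt and Pmch also red in KO stress 5.

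Lists of genes that mark the developing and adult hypothalamus had the same 8 highest libraries as Hcrt, a number taken from Hcrt itself. The 8 libraries highest in Hcrt were also the 8 highest in the summed level of 17 hypothalamic transcription factors, where the eighth had 47.7 CPM and the ninth 31.3 CPM. They were the 8 highest in the sum of 10 other hypothalamic genes (eighth 245.1 CPM, ninth 234.6 CPM) and of 8 further hypothalamic peptide genes (eighth 2.27 CPM, ninth 2.16 CPM). Below the ninth, the sum of the 10 other hypothalamic genes went down gradually to 158.4 CPM in WT control 2. It then fell to 81.0 CPM in WT control 5, and the libraries above that fall were those above the largest step of Cartpt. The 8 libraries highest in Hcrt were also the 8 highest in 18 thalamus and habenula markers (eighth 545.9 CPM, ninth 534.1 CPM), although Tcf7l2 alone shared 7 of the 8. Of single genes, 63 of 16313 (0.386%) had exactly these 8 highest libraries, Avp, Gal, Hcrt and Pmch included. For Gal the eighth and ninth were nearly equal, at 1.908 CPM and 1.903 CPM (WT stress 2). Whether tissue from outside the hippocampus had a part in the peptide levels was not tested. In whole tissue, fewer cells of a type and less RNA per cell cannot be told apart.

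By group, the 17 transcription factors summed to 12.1 to 84.5 CPM in KO stress, 12.9 to 78.1 CPM in KO control, 9.75 to 59.9 CPM in WT stress and 14.5 to 31.3 CPM in WT control libraries. All 17 had reads in every group except Hmx2, which was at 0 in WT control. The genes weigh unequally in these sums: Nkx2-2 had at least 5.26 CPM in every library. Hmx2 and Nkx2-4 had a median of 0 CPM over all libraries. The 18 thalamus and habenula markers, all with reads in every group, summed to 170.3 to 929.8 CPM in KO stress, 168.9 to 663.2 CPM in KO control, 150.0 to 897.4 CPM in WT stress and 146.9 to 534.1 CPM in WT control libraries.

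The 13 choroid plexus markers and the peptide genes shared 5 of 8 highest libraries. Choroid plexus sums were 816.5 to 2094 CPM in KO stress, 32.6 to 1912 CPM in KO control, 23.0 to 2188 CPM in WT stress and 66.2 to 2609 CPM in WT control libraries. The highest was WT control 6, which had 4 Hcrt reads. Ttr averaged 837.2 CPM over all libraries and Kl, the next most abundant of the 13, 20.6 CPM, so the high sums were mostly Ttr. The 5 ependymal markers shared 7 of the 8, with sums of 37.2 to 69.8 CPM in KO stress, 20.7 to 43.7 CPM in KO control, 18.2 to 52.3 CPM in WT stress and 21.7 to 50.5 CPM in WT control libraries. The 9 measured striatal markers shared 5 of the 8, with sums of 162.5 to 311.0 CPM in KO stress, 163.1 to 712.5 CPM in KO control, 137.1 to 229.8 CPM in WT stress and 148.2 to 242.9 CPM in WT control libraries. The 11 monoaminergic neuron markers shared 3 of the 8. Their sums were 18.4 to 226.2 CPM in KO stress, 16.5 to 140.2 CPM in KO control, 14.2 to 149.0 CPM in WT stress and 14.7 to 171.0 CPM in WT control libraries. The libraries above WT control 6, at 24.2 CPM, were those above the largest step of Cartpt. Of 12 pituitary markers 10 had a read in KO stress, 7 in KO control, 8 in WT stress and 7 in WT control. Their summed level was 44.1 CPM in KO stress 3 and 44.3 CPM in KO stress 5 and at most 4.74 CPM in every other library. Gh, growth hormone, had 28.1 and 36.8 CPM in those 2 libraries, and Pomc, which pituitary cells also make, had 23.9 and 2.96 CPM there.

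Summed hippocampal neuron markers ran the other way. None of the 8 libraries highest in Hcrt was among the 8 highest in these 14 markers, and 5 of them were among the 8 lowest. The sum was 455.5 to 1223 CPM in KO stress, 398.3 to 1085 CPM in KO control, 522.8 to 1450 CPM in WT stress and 556.0 to 1344 CPM in WT control libraries. All of set 1 lay between 398.3 CPM (KO control 2) and 618.7 CPM (KO control 1). That range took in libraries with few Hcrt reads, such as WT control 3 at 556.0 CPM and WT stress 2 at 522.8 CPM. In set 2, KO stress 3, KO stress 5 and WT stress 5 had 590.3, 655.2 and 737.4 CPM, and every other library had at least 913.3 CPM. The part of these markers in the peptide levels was not tested.

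The genes most like the 9 peptide genes, by r of their log2 level with the mean standardised log2 level of the 9 over 24 libraries, were led by Ghrh, the growth hormone-releasing hormone of the arcuate nucleus (r = 0.957). Isl1 (0.951), Fezf1 (0.946), Hmx2 (0.928), Nkx2-1 (0.924), Nr5a1 (0.923), Nkx2-4 (0.913) and Hmx3 (0.906) followed among transcription factors that specify hypothalamic neurons. The others of the leading 15 were Pcp4, a calmodulin-binding protein (0.949), Gabre, a GABA-A receptor subunit (0.931), the calcitonin receptor Calcr (0.925), Tac2, the neurokinin B precursor (0.924), Npvf (0.913), the cholecystokinin receptor Cckar (0.907) and Ramp3 (0.905). Of all 16313 genes, 159 had r above 0.8. This count takes in peptide genes, each of which is part of the mean it is compared with. Among the 159 were 13 of 17 hypothalamic transcription factors, 7 of 10 other hypothalamic genes and 10 of 18 thalamus and habenula markers. Also among them were 3 of 6 tested further hypothalamic peptide genes and 2 of 9 striatal markers. So were 2 of 13 peptide genes that hippocampal neurons use and 1 of 14 genes of prohormone processing and dense-core vesicles. Of the receptors 1 of 12 was (Mc3r, 0.855), and of the hippocampal neuron markers 0 of 14.

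Within library set 1 the r of these 15 genes was 0.744 to 0.970, and within set 2 it was 0.877 to 0.993. Pcp4 was the most abundant of them: it had 387.1, 441.3, 407.3, 133.2 and 286.3 CPM in KO stress 1 to 5, 159.5 to 454.2 CPM in KO control, 162.3 to 401.3 CPM in WT stress and 150.4 to 246.5 CPM in WT control libraries. Its 8 highest libraries were those of Hcrt, by a narrow margin: the eighth had 286.3 CPM and the ninth, WT stress 1, 285.6 CPM. Ghrh had 0.219 to 1.59 CPM in KO stress, 0 to 1.06 in KO control, 0 to 1.02 in WT stress and 0 to 0.442 CPM in WT control libraries.

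The nearest genes of single members kept to the same circle. Hcrt and Pmch were each other's nearest gene (r = 0.976), Avp was nearest to Oxt (0.964), and Oxt to Fezf1 (0.964, ahead of Avp in the fourth decimal). Gal was nearest to Isl1 (0.936), Pomc to Avp (0.909) and Agrp to Ghrh (0.911). Trh was nearest to Hap1 (0.932), the huntingtin-associated protein gene, which had 173.0 to 456.2 CPM in KO stress and 158.8 to 365.6 CPM in WT control libraries.

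The design gives 5 comparisons, all fitted over 24 libraries and adjusted over 16313 genes. None of the 9 peptide genes passed an adjusted p of 0.05 (edgeR quasi-likelihood test) in any of the 5. For KO against WT under stress, 0 of the 16313 genes (0%) were called. The fitted log2 fold changes were 3.88 ± 1.33 (SE) for Avp, 3.44 ± 1.40 for Oxt, 2.60 ± 1.34 for Hcrt, 2.15 ± 1.46 for Pmch and 1.66 ± 0.49 for Pomc. Agrp (1.62 ± 0.65), Gal (1.47 ± 0.84) and Trh (1.31 ± 0.96) were smaller, and Cartpt was 0.43 ± 0.88. All 9 were above 0, with a median of 1.66 beside −0.0037 for all genes. At an unadjusted p under 0.05 there were 4 of the 9 and 4.71% of all genes, and DESeq2 called 0 of each. Groups without overlap were seen in 0 of the 9, beside 0.141% of all genes that were higher and 0.104% that were lower in every KO stress library.

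WT stress 5 lowered these values for Avp, Oxt, Hcrt and Pmch. Without that library the fold change of KO stress over WT stress was 5.92 for Avp, 6.13 for Oxt, 6.51 for Hcrt and 7.16 for Pmch, and still none was called. Within library set 1, where KO stress 1 and 2 met WT stress 1 and 2, it was 6.09 for Avp and 6.13 for Hcrt, and within set 2, where KO stress 3 to 5 met WT stress 3 to 6, it was 2.79 and 1.65.

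KO stress against KO control gave small values for the same genes: −0.08 ± 1.19 for Avp, −0.62 ± 1.27 for Oxt, 0.63 ± 1.27 for Hcrt and 0.56 ± 1.41 for Pmch. The other 5 lay between 0.35 (Trh) and 0.95 (Agrp). Called genes made up 0.00613% of those tested, and 0 of the 9 were called. DESeq2 called 0.0429% of all genes and 0 of the 9, and 0 of the 9 had an unadjusted p under 0.05 (3.97% of all genes). In 0 of the 9 were the groups without overlap, beside 0.233% of all genes higher and 0.0674% lower in every KO stress library. Within set 1 Hcrt differed by 0.53 and Pmch by 0.50, and within set 2, with 3 KO stress against 2 KO control libraries, by 6.63 and 7.57. Gal differed by 0.59 within set 1 and 4.10 within set 2, and Trh by 0.34 and 3.43. In set 2, KO stress 3 had 1676 Hcrt and 1931 Pmch reads and KO stress 4 had 10 and 3, against 10 Hcrt and 6 Pmch reads in KO control 5 and 2 of each in KO control 6.

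KO control against WT control had the largest fold changes. They were 7.22 ± 1.68 for Oxt, 6.68 ± 1.70 for Hcrt, 6.60 ± 1.502 for Avp, 5.56 ± 1.70 for Pmch, 1.72 ± 0.80 for Gal and 1.41 ± 0.46 for Pomc. Agrp was 1.20 ± 0.62, Trh 1.17 ± 0.89 and Cartpt −0.05 ± 0.82. The median was 1.72 for the 9 genes and −0.0034 for all genes. By edgeR 0 of the 9 and 0 of all genes (0%) were called, and 6 of the 9 against 3.02% of all genes had an unadjusted p under 0.05.

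DESeq2 called 3 genes in KO control against WT control (0.0184% of those tested), and these were Avp at 6.66 ± 1.21 (adjusted p = 0.000683, DESeq2), Hcrt at 6.73 ± 1.29 (adjusted p = 0.00141, DESeq2) and Oxt at 7.32 ± 1.51 (adjusted p = 0.00707, DESeq2). The 9 genes were picked on these libraries, so nothing is read from the calls. Groups without overlap were seen for Oxt alone of the 9 (0.0368% of all genes were higher in every KO control than in any WT control library). That gap was between 0.419 CPM in KO control 6 and 0.351 CPM in WT control 7, and both values rested on 12 reads.

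The KO control values came from replicates 2 to 4, which lay in library set 1. Within set 1, with 4 KO control against 3 WT control libraries, the fold change was 7.85 for Avp, 8.68 for Oxt, 7.97 for Hcrt and 4.98 for Pmch. Within set 2, with 2 against 4, it was −0.35 for Avp, 1.32 for Oxt, −0.09 for Hcrt and 1.22 for Pmch. Gal and Trh turned direction between the sets: Gal was 2.03 within set 1 and −2.06 within set 2, and Trh 1.83 and −2.49. In set 2, Gal had 0.271 and 0.140 CPM in KO control 5 and 6, against 0.719 to 1.09 CPM in WT control libraries. Trh had 0.814 and 0.769 CPM in KO control 5 and 6, against 1.15, 15.1, 1.24 and 0.497 CPM in WT control 4 to 7.

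WT stress against WT control had 4.72 ± 1.71 for Hcrt, 3.97 ± 1.67 for Pmch, 3.16 ± 1.79 for Oxt and 2.65 ± 1.54 for Avp. The other 5 lay between 0.04 (Cartpt) and 0.87 (Gal). Here 22 genes (0.135%) were called over the table, 0 of them peptide genes, and 2 of the 9 against 4.41% of all genes had an unadjusted p under 0.05. DESeq2 called 59 genes (0.362%) and 0 of the 9. No peptide gene had groups without overlap, beside 0.221% of all genes higher and 0.0613% lower in every WT stress library.

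These fold changes came largely from WT stress 5. Without it the fold change was 0.80 for Hcrt, 0.60 for Avp and 0.47 for Oxt, and it was below 0 for Pmch (−1.04), Agrp (−0.28), Gal (−0.19) and Trh (−0.14). Within set 1 the fold change was 2.36 for Hcrt and −1.60 for Pmch, and within set 2, which holds WT stress 5, it was 4.89 and 7.69.

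**Figure D4:**
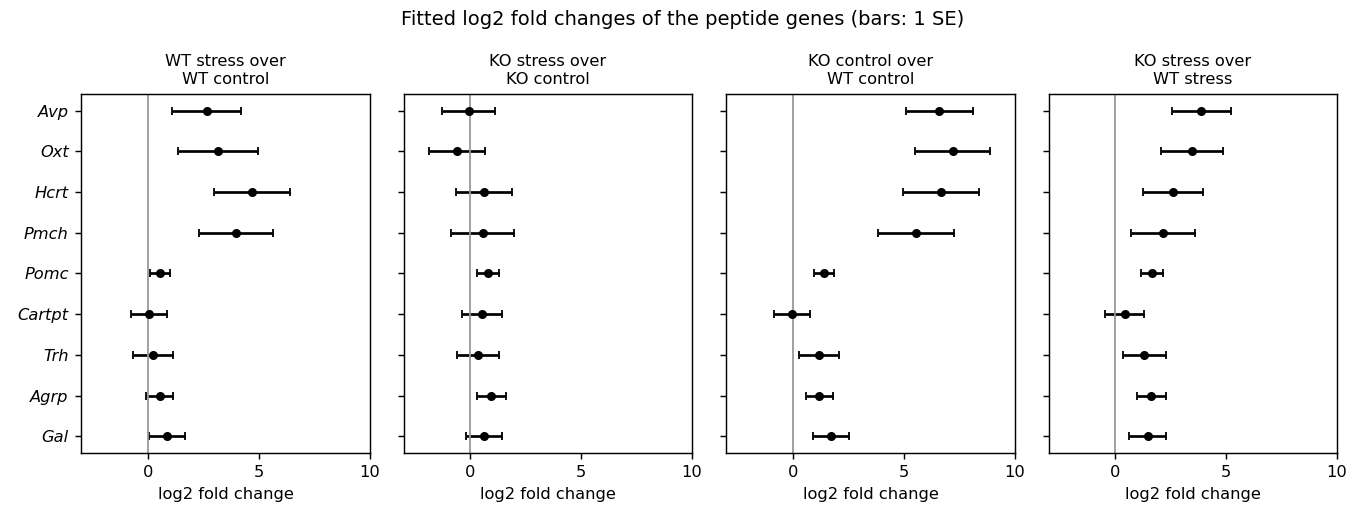
Fitted log2 fold change of the 9 peptide genes in 4 comparisons (x axis), with bars of 1 SE, from edgeR over all 24 libraries. The widest bars belong to Avp, Oxt, Hcrt and Pmch, whose fold changes reach 7.22 in KO control over WT control and stay between −0.62 and 0.63 in KO stress over KO control.

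For the interaction, or the effect of stress in KO mice less that in WT mice, the values were −4.09 ± 2.21 for Hcrt, −3.77 ± 2.23 for Oxt, −3.41 ± 2.22 for Pmch and −2.73 ± 1.97 for Avp, and the other 5 lay between −0.26 and 0.49. No gene of the table was called (0%), and 0 of the 9 against 2.35% of all genes had an unadjusted p under 0.05. Without WT stress 5 the interaction was −0.17 for Hcrt, −1.09 for Oxt, 1.60 for Pmch and −0.68 for Avp. Within set 2 alone it was above 0 for Avp (3.14), Hcrt (1.74) and Oxt (1.35) and −0.12 for Pmch, and within set 1 it was −1.75, −1.83 and −1.81 for these 3 and 2.10 for Pmch. The comparisons share groups: KO stress enters 3 of them and WT stress 3, so they are not independent of each other.

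Of 17 receptor genes of the peptides 12 passed the filter on low counts, and 0 were called in any comparison. All 17 had reads in every group except Mc2r, the ACTH receptor, which was at 0 in KO stress. Their median log2 fold change was 0.19 in KO stress over WT stress, 0.29 in KO stress over KO control, 0.14 in KO control over WT control and 0.05 in WT stress over WT control. The lists were chosen with earlier results of these data known.

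Mchr1, the receptor of melanin-concentrating hormone, had the highest CPM of them, with 17.4 to 28.6 CPM in KO stress, 22.5 to 28.8 CPM in KO control, 19.8 to 30.7 CPM in WT stress and 21.5 to 28.6 CPM in WT control libraries. Oxtr, the oxytocin receptor, averaged 9.29 ± 2.15 CPM in KO stress (SD, n = 5), 8.28 ± 1.25 in KO control (n = 6), 8.67 ± 1.79 in WT stress (n = 6) and 9.89 ± 1.95 in WT control libraries (n = 7). Its fold change was 0.10 ± 0.16 in KO stress over WT stress and −0.25 ± 0.15 in KO control over WT control, where Oxt itself was at 3.44 and 7.22.

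The orexin receptor Hcrtr1 ran from 2.45 to 8.06 CPM in KO stress, 1.36 to 7.25 CPM in KO control, 1.52 to 7.75 CPM in WT stress and 1.36 to 5.89 CPM in WT control libraries, and Hcrtr2 from 0.585 to 2.73 CPM over all of them. Mc4r, the main brain melanocortin receptor, averaged 3.70 ± 1.26 CPM in KO stress, 3.92 ± 1.16 in KO control, 4.50 ± 1.54 in WT stress and 4.94 ± 0.99 in WT control libraries (SD, n = 5, 6, 6 and 7). Mc3r, the receptor most like the peptide genes in pattern, had a median of 1.05 CPM in KO stress, 0.338 in KO control, 0.200 in WT stress and 0.476 CPM in WT control libraries. The vasopressin receptor Avpr1a had at most 1.19 CPM in any library.

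**Figure D5:**
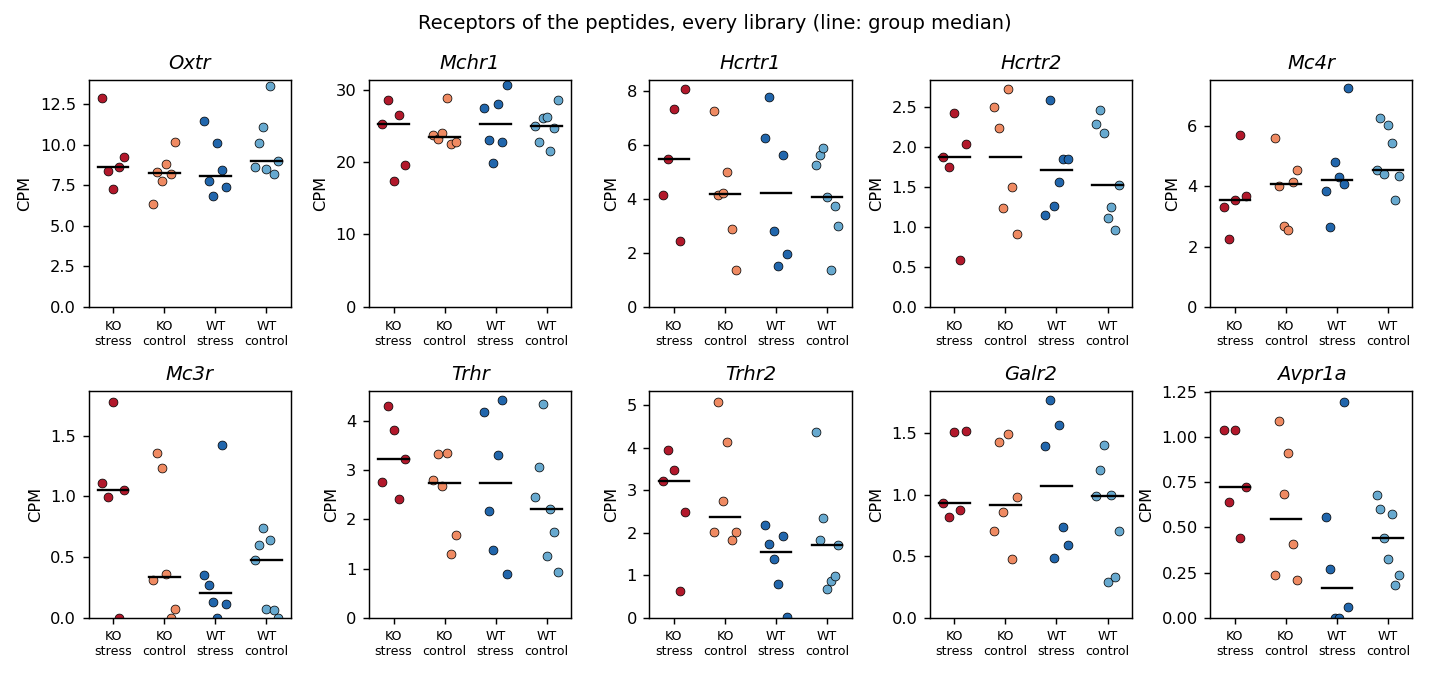
Level in CPM of 10 receptor genes of the peptides in every library, by group, with a line at the group median. The groups overlap in all 10 panels, and Mchr1 lies between 17.4 and 30.7 CPM in all 24 libraries.

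Prohormone processing and dense-core vesicle release are shared by all peptidergic neurons, hippocampal ones included. All 14 genes of prohormone processing and dense-core vesicles passed the filter and 0 were called in any comparison, with medians of 0.01 in KO stress over WT stress and −0.06 in KO control over WT control. Cpe, carboxypeptidase E, averaged 2365 ± 216 CPM in KO stress (SD, n = 5) and 2542 ± 326 CPM in WT control libraries (n = 7). Of the 5 receptor partners and degrading enzymes 0 were called, and Sdc3, which binds Agrp, had the highest level of them at 281.8 to 432.3 CPM in KO stress and 321.9 to 426.8 CPM in WT control libraries.

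Peptide genes that hippocampal neurons use themselves had a median r of 0.18 with the 9 over 24 libraries. Of 13 such genes 0 were called, with medians of −0.25 in KO stress over WT stress and 0.12 in KO control over WT control. Cck had 266.7 to 506.0 CPM in KO stress and 337.3 to 616.0 CPM in WT control libraries, and Sst, somatostatin, had 203.0 to 350.7 CPM in KO stress and 211.9 to 446.9 CPM in WT control libraries. Of the 13, Tac2 (r = 0.924) and Tac1 (r = 0.863), both tachykinin precursors, had r above 0.8. Tac2 had 5.05 to 20.6 CPM in KO stress, 5.59 to 19.1 in KO control, 4.87 to 19.7 in WT stress and 5.03 to 10.8 CPM in WT control libraries, and its 8 highest libraries were those of Hcrt.

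The hypothalamic lists had median fold changes above 0 in the 4 pairwise comparisons, as the 9 peptide genes had, again with 0 genes called. Single genes did not all share that sign. In KO control over WT control 15 of 17 transcription factors, 4 of 6 further peptide genes and 8 of the 9 peptide genes were above 0. For the 17 transcription factors the median was 1.72 in KO stress over WT stress, 0.34 in KO stress over KO control, 2.10 in KO control over WT control and 0.81 in WT stress over WT control. In KO stress over WT stress the median was 1.18 for the 10 other hypothalamic genes, 0.88 for the 6 tested further hypothalamic peptide genes, 0.91 for thalamus and habenula markers and −0.34 for hippocampal neuron markers. In KO control over WT control it was 1.07 for the other hypothalamic genes, 1.48 for the further peptide genes, 0.66 for thalamus and habenula markers and −0.50 for hippocampal neuron markers. Markers of other regions had medians of like size in single comparisons, with 0 genes called. In KO stress over WT stress the median was 1.42 for choroid plexus markers (13 of 13 above 0), 0.86 for ependymal markers (5 of 5 above 0) and 0.49 for striatal markers (8 of 9 above 0). In KO control over WT control it was 0.998 for striatal markers (8 of 9 above 0), 0.31 for ependymal markers and −0.08 for choroid plexus markers. The part of these tissues in the peptide levels was not tested. The medians over all genes tested lay between −0.0037 and 0.0052 in the 4 pairwise comparisons.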

How the data were processed

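The authors deposited raw counts of reads for each gene symbol in 24 libraries. The submitters' processing notes name STAR, DESeq2 and the build mm10. The sources used here do not give the read counter, its annotation or its use of strand. In each library 70.9% to 75.8% of counts from 1 to 10 were even, so each mate of a read pair was probably counted on its own. A deposited table of normalized counts and a deposited table of fold changes were not used here.

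Groups and replicate numbers came from the sample titles. Counts were fitted with edgeR 4.0.16 (TMM, low-count filter with minimum count 10, robust quasi-likelihood fit of 4 group means, 20 residual degrees of freedom), with Benjamini-Hochberg adjustment over 16313 genes and a threshold of 0.05. The SE is approximate and was taken from the fold change and its F statistic. In simulated data 89% to 98% of 2-fold changes were recovered in the 4 pairwise comparisons. These rates cannot be taken to hold for the peptide genes, which varied more than most genes. Their biological coefficient of variation was 0.545 (Pomc) to 1.78 (Oxt), beside a median of 0.159 over all genes. A peptide gene that was not called is thus not shown to be unchanged. CPM uses TMM-scaled library sizes, and log2 levels add 0.5. Floors of 3 reads cover counting error only. Library sets were split at 15000 CPM of Rn45s over all reads.

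The 9 genes and the lists were chosen with earlier results of these data known. Named were the 9 genes, genes past the threshold or the 2 most abundant of each list, all receptors, the 15 genes and 3 per member most alike, and Il1r1, Tcf7l2, Ttr, Spink8 and Rn45s; Gh, Prl and Dio3 were named after their values were seen. Gene positions are from GENCODE M21, and promoters from RefSeq (8 of 9 genes matched).

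Alternatives were DESeq2 1.42.0, RLE factors, no filter, a filter of 1 CPM in 5 libraries, only the groups compared, the library set as a term, each set alone, a replicate block, each library left out and, chosen after seeing the data, leaving out the 3 libraries over 80 CPM of Tcf7l2.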

Additional observations from a re-analysis of the deposited data

Results flagged for a closer look

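Of 36 sets of values (9 genes in 4 groups), 8 held a library whose gap to the nearest other was above Dixon's limit, which about 1 in 20 independent groups passes by chance. The genes were chosen with these levels known and move together, so the 8 are not independent and are given as a description. In 6 of the 8 the library was WT stress 5. It had 10.8 CPM of Avp (the nearest other WT stress library had 0.884 CPM), 6.11 CPM of Oxt (0.386), 25.7 CPM of Hcrt (0.766), 49.3 CPM of Pmch (0.662), 2.16 CPM of Agrp (0.612) and 6.60 CPM of Gal (1.90). The same library had 105.0 CPM of Tcf7l2 and a summed level of hypothalamic transcription factors of 59.9 CPM, the highest of WT stress. The other 2 were small in size: WT control 6 had 1.21 CPM of Avp (nearest 0.405 CPM) and WT control 1 had 2.35 CPM of Pmch (nearest 0.883 CPM).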

How the results depend on the processing

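Of the recomputed fold changes of the 9 genes, 1456 moved by less than the spread between libraries and 61 by more; those 61 came from each library set alone, from leaving out WT stress 5 and from leaving out the libraries rich in Tcf7l2. Of the recomputed likeness values 690 stayed within the range given by leaving out each library in turn, and 54 did not. The number of peptide genes called was the same in 168 recomputed counts and different in 1, which was KO control against WT control under DESeq2, with 3 peptide genes and 3 genes in all, against 0 by edgeR; the cause was not tested. For WT stress against WT control 22 genes were called in all, but 59 under DESeq2 and 0 within library set 1 (fewer samples). For KO stress against KO control 1 gene was called, but 7 under DESeq2 and 0 without the filter, with the 2 groups only, with the library set as a term, within set 1, within set 2 and without the 3 libraries over 80 CPM of Tcf7l2. Leaving out 1 library at a time gave 0 to 2 genes there. The counts of called list genes were 0 under every setting run.

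Same-numbered libraries of different groups deviated together in some pairs and apart in others (r of −0.32 to 0.54 over 22 pairs, 12 of them over 0.1). Replicates 1 and 2 were in library set 1 in every group, so number and set cannot be fully told apart. The numbers were not taken to pair the mice. With a replicate block 24 genes were called in WT stress against WT control and 1 in KO stress against KO control, and 0 peptide genes in any comparison.

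Levels of Agrp, and those of Avp, Oxt, Hcrt and Pmch in the low libraries, rest on few reads, which limits the precision of differences between those libraries.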

Other observations

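Growth hormone and prolactin transcripts were high in 2 libraries. Gh had 28.1 CPM in KO stress 3 and 36.8 CPM in KO stress 5, and Prl, prolactin, had 10.9 and 5.13 CPM in these. In the other 22 libraries Gh was at most 0.569 CPM and Prl at most 0.219 CPM. KO stress 3 had the highest Pomc of all libraries and KO stress 5 did not.

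Striatal markers stood apart in KO control 2, where 9 genes summed to 712.5 CPM, and the next highest library was KO control 3. KO control 2 had the second highest Avp level, 89.6 CPM.

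In WT control 5, Trh stood at 15.1 CPM beside 3.28 CPM of Cartpt and 2.36 CPM of Pomc, and each of the other 6 peptide genes had at most 0.857 CPM. The same library had 9.78 CPM of Dio3, an enzyme that inactivates thyroid hormone, which was the highest Dio3 level of the 24 libraries; both genes were singled out after their values were seen.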
